A study of Homo sapiens with 22 samples.

Results

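Binding of the estrogen receptor ESR1 at the TRIM25 locus was examined in the endometrial cancer line Ishikawa, with wild-type receptor or with the D538G substitution in its ligand-binding domain. The locus was taken as the 120 kb of chromosome 17 from 54900000 to 55020000 (hg19, the same coordinates as GRCh37), and its members were the ChIP-seq peaks that overlap this window. Of 356467 peaks in 20 lists, 75 were members, and they merged into 15 of the 93612 regions of the series. The locus was chosen by measured values, namely a peak in its strongest region in every D538G list and in no wild-type list without estrogen, and the rank of that peak in the D538G DMSO lists. Presence and rank under DMSO are therefore given as a description, with nothing read from a test of them. Presence of that region in the D538G lists with estrogen was fixed by the choice as well.

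Clones of the line carried ESR1 with a FLAG tag, and the chromatin was precipitated with an antibody against FLAG, so only tagged receptor was measured. All cells were first deprived of hormone for 5 days or more and then received either 10 nM estradiol (E2) or 0.1% DMSO, the solvent, for 1 h. The 4 groups were wild type with DMSO (4 libraries) and wild type with E2 (4 libraries), each from 2 clones, and D538G with DMSO (6 libraries) and D538G with E2 (6 libraries), each from 3 clones, with 2 replicates of every clone. A clone is a line grown from a single cell, so differences between clones other than the mutation are part of each genotype, and the 2 replicates of a clone are not fully independent. An input library of each genotype, 2 in all, was not analysed here, and peak lists cannot show the genotype of a library.

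ESR1 is a nuclear receptor that, once estradiol is bound, takes up a shape that recruits coactivators and binds DNA at estrogen response elements. Substitutions at the D538 residue are known from endocrine-resistant breast cancer, where they give the receptor activity without hormone. TRIM25, first described as the estrogen-responsive finger protein, is a ubiquitin ligase of the tripartite motif family that also acts in antiviral signalling through RIG-I. In RefSeq the microRNA gene MIR3614 lies within TRIM25, and the nearest protein-coding genes on either side are DGKE, which encodes a diacylglycerol kinase, and COIL, which encodes coilin, the marker protein of Cajal bodies. The gene table belongs to another assembly (GRCh38.p14) than the lists, so peaks were placed by their coordinates and not by exon, intron or promoter, and no sequence of the regions is shown.

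The lists behind these values differed widely in length, and read depth is unknown. Wild-type DMSO lists held 45 to 29118 peaks, wild-type E2 lists 5757 to 35344, D538G DMSO lists 1619 to 54903 and D538G E2 lists 1977 to 49223. A region without a peak in a short list may have been bound below the calling limit, and weak binding, low enrichment and few reads cannot be told apart in a list. The peaks of the list labelled D538G E2 clone 2 replicate 1 carry the abbreviation Ctl in their names, as did all 5 DMSO lists of replicate 1 and no other E2 list. That list was used as labelled. The tests on the main region that rest on it, and some of the other results, are also given without it. Peak names of the list labelled D538G E2 clone 3 replicate 1 include E2, as in all replicate 2 E2 lists and in no other list of replicate 1. It was used as labelled too.

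The strongest region of the window, the 6th of the 15 by position and called the main region here, spanned 2018 bp from 54967647 to 54969664 on chromosome 17. It was picked as the region of the window with a peak in the most lists, E2 lists included. In wild type it had a peak in 0 of 4 lists with DMSO and 4 of 4 with E2, and in D538G in 6 of 6 with DMSO and 6 of 6 with E2. Over the whole genome, 0.814% of the regions tested had a peak in all D538G DMSO lists and none of the wild-type DMSO lists, which is the contrast that chose the locus. In wild type, 9.34% of the regions tested went from 0 of 4 lists under DMSO to 4 of 4 under E2, as the main region did. The wild-type DMSO lists were used to choose the locus, so this count is partly set by that choice, and it did not pass adjustment (Fisher's exact test, p = 0.0286, adjusted p = 0.306 over 29233 regions). In D538G the main region had a peak in all 12 lists. This was fixed by the choice under both treatments, so E2 could not raise the count and no test is read.

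**Figure D1:**
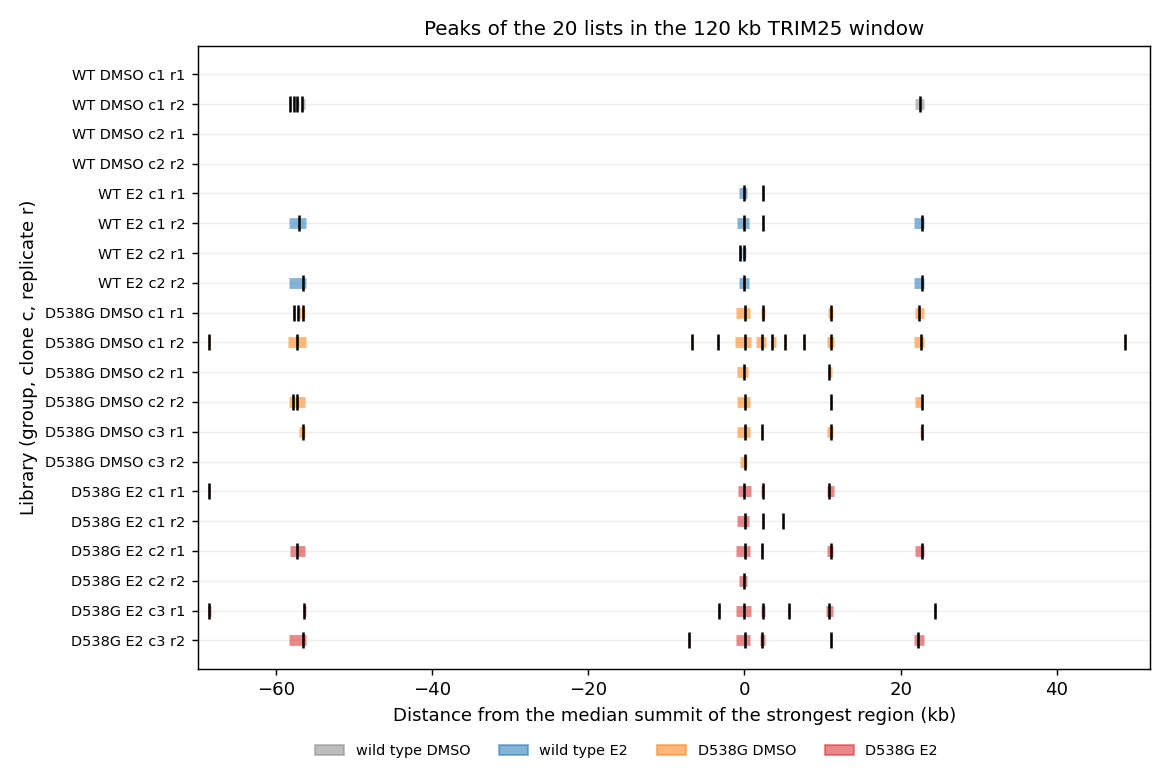
Peaks of the 20 lists in the 120 kb window, 1 row per library, as bars coloured by group with a black tick at each summit; the horizontal axis is the distance in kb from the median summit of the main region. The main region at 0 kb has a peak in all 16 lists other than wild-type DMSO, and peaks about 11.1 kb above it are in D538G rows only.

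Of the wild-type DMSO lists, 3 were short, with 45, 51 and 1080 peaks, and had no peak anywhere in the window. The other, clone 1 replicate 2, held 29118 peaks, with 5 in the window and none of them in the main region. Peaks in lists as short as 1619 (D538G DMSO clone 3 replicate 2) and 1977 (D538G E2 clone 2 replicate 2) included the main region, and in both it was the single peak of the window. Across the genome, 659 regions had a peak in all 16 lists outside the wild-type DMSO group. Of these, 208 (31.6%) had no peak in the long wild-type DMSO list and 189 (28.7%) had none in any of the 4, so the main region shared its absence with many others found in all the remaining lists.

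Signal values are the authors' own and were read only against other peaks of the same list. In the wild-type E2 lists the main peak had a signal value of 39.3 in clone 1 replicate 1, 56.6 in clone 1 replicate 2, 31.3 in clone 2 replicate 1 and 43.6 in clone 2 replicate 2. It stood at rank 951 of 8206, 4240 of 35344, 830 of 5757 and 3360 of 31108 peaks in the same order, between percentiles 85.6 and 89.2 of its list (100 is the strongest). In D538G DMSO lists the signal value ran from 58.9 through a median of 87.5 to 126, and the percentile from 97.7 through 99.4 to 99.8. In D538G E2 lists the signal value ran from 52.8 through 97.3 to 131, and the percentile from 93.1 through 99.1 to 99.7. The D538G percentiles under DMSO were used to choose the locus, so their distance from those of wild type is a description. The share of other regions placed in this way was not counted. The −log10 p of the peak, which also moves with depth, was 119 to 218 in wild type with E2, 214 to 690 in D538G with DMSO and 180 to 660 in D538G with E2. The highest places were rank 22 of 6542 peaks in D538G E2 clone 1 replicate 2, rank 28 of 9850 in D538G DMSO clone 3 replicate 1 and rank 33 of 12963 in D538G DMSO clone 1 replicate 1.

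Ranks in lists of unequal length are not comparable, so the main region was also ranked by signal value among regions that every E2 list holds. This set is the same for each list, but the percentile in it can still move with list length. There were 1112 regions with a peak in all 10 E2 lists. Among them the main region stood at percentile 49.2 in wild-type clone 1 replicate 1, 28.7 in clone 1 replicate 2, 54.3 in clone 2 replicate 1 and 30.3 in clone 2 replicate 2. In D538G it stood at percentile 96.9 and 98.1 in the replicates of clone 1, 78.6 and 88.9 in clone 2, and 50.3 and 79.4 in clone 3. Wild type was thus near or below the middle of the shared regions, and 5 of 6 D538G lists lay above every wild-type list, clone 3 replicate 1 being the exception. In both genotypes the shorter lists gave the higher percentiles. Wild-type lists of 5757 and 8206 peaks gave 54.3 and 49.2, and those of 31108 and 35344 peaks 30.3 and 28.7. D538G lists of 1977 to 12566 peaks gave 88.9 to 98.1, and those of 19832 to 49223 peaks 50.3 to 79.4.

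The mean percentile under E2 was 82.0 ± 17.6 (SD, n = 6) in D538G and 40.6 ± 13 (SD, n = 4) in wild type, a difference of 41.4 percentile points. An exact two-sided permutation test over the 210 splits gave p = 0.0190. The adjusted p was 0.0570 over the 3 tests made on the main region and 0.131 over the 1112 regions (Benjamini-Hochberg), so the difference did not pass adjustment. In this comparison 22.8% of the shared regions had an unadjusted permutation p under 0.05, and 7.55% differed by as much in either direction. The choice of the locus required a peak in the main region in every D538G E2 list. These libraries also came from the same clones as the DMSO libraries that led to the choice. The test is therefore not independent of that choice, and its p-values, here and under alternatives, are not read as support. The part of list length in the difference was not tested. Among replicate 1 libraries alone D538G stood 23.5 points higher (exact permutation p = 0.30), and among replicate 2 libraries 59.3 points higher (p = 0.100, the smallest an exact test of 3 against 2 libraries allows). With clone means as units, 3 against 2 clones, the exact permutation p was 0.20. Leaving out D538G E2 clone 3 replicate 1 or any other single library kept the exact p between 0.00794 and 0.0357. Without the E2 list whose peak names carry Ctl the difference was 41.6 (exact permutation p = 0.0238).

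**Figure D2:**
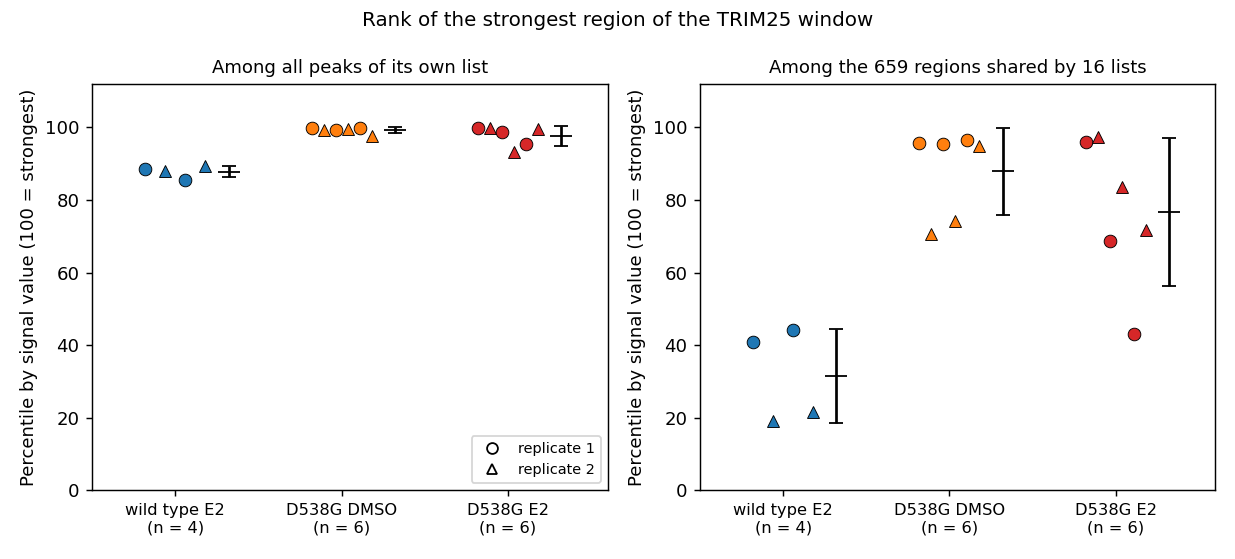
Percentile of the main region by signal value (vertical axis, 100 is the strongest), among all peaks of its own list on the left and among the 659 regions shared by the 16 lists outside wild-type DMSO on the right; each point is a library, circles replicate 1 and triangles replicate 2, with the mean and SD beside them. Wild-type E2 libraries sit at 19.0 to 44.2 on the right, D538G DMSO at 70.7 to 96.4 and D538G E2 at 43.1 to 97.3.

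The 659 regions shared by the 16 lists are the same set for both D538G treatments. Among them the main region stood at 31.4 ± 12.9 (SD, n = 4) in wild type with E2, 87.8 ± 12 (SD, n = 6) in D538G with DMSO and 76.7 ± 20.3 (SD, n = 6) in D538G with E2. Wild-type E2 values ran from 19.0 to 44.2 and D538G DMSO values, from the lists that chose the locus, from 70.7 to 96.4. How many of the 659 regions were placed in this way was not counted, so nothing is read from the distance. In D538G the percentile was higher under DMSO than under E2 in 3 of 6 pairs of clone and replicate. Clone 3 replicate 1 showed the widest gap of these 3, with 96.4 under DMSO and 43.1 under E2, and clone 1 replicate 2 went the other way, with 70.7 and 97.3. The DMSO and E2 lists held 9850 and 19832 peaks in the former pair, and 50382 and 6542 in the latter. In every pair the shorter list gave the higher percentile, though both values were nearly equal in clone 1 replicate 1. The part of list length was not tested. Since presence and rank under DMSO chose the locus, the percentiles were not tested either. By mean percentile in the D538G DMSO lists (99.2) the main region was the highest of the 262 regions with a peak in all D538G and no wild-type DMSO lists, which is a description of the choice.

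The summit of the main region, the base where its signal was highest, fell within 40 bp in all 16 lists, from 54968817 to 54968857. Its median was 54968837.5. Under E2 the mean summit was 54968838.2 ± 11.6 bp (SD, n = 6) in D538G and 54968824.5 ± 8.10 bp (SD, n = 4) in wild type. The difference of 13.7 bp did not pass (p = 0.0810 by exact permutation, two-sided, and 0.900 adjusted over 1112 regions). Across the 1112 regions 54.3% differed by as much, and 5.94% had an unadjusted permutation p under 0.05. Without D538G E2 clone 3 replicate 1 the difference was 16.9 bp with an unadjusted exact permutation p of 0.0317, and without the E2 list whose peak names carry Ctl it was 10.7 bp (exact permutation p = 0.143).

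In D538G the summit under E2 was lower than under DMSO in 4 of 6 pairs. The mean difference was −6.67 bp (exact two-sided sign-flip permutation test over 6 pairs, p = 0.469, adjusted p = 1.00 over the 704 regions with a peak in all 12 D538G lists), where 2.27% of those regions had an unadjusted p under 0.05. Clone 2 replicate 1, the pair that includes the E2 list whose peak names carry Ctl, had the widest change, 32 bp upwards from 54968821 under DMSO to 54968853 under E2. Without this pair the mean difference was −14.4 bp (exact sign-flip permutation p = 0.125). The position of the summit was thus shared by genotypes and treatments to within 40 bp, less than the width of any peak there.

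Main peaks were 435 to 1603 bp wide in wild type with E2, 860 to 2018 bp in D538G with DMSO and 1105 to 1884 bp in D538G with E2. The merged region of 2018 bp compares with a median of 382 bp over all regions, and 1.44% of all regions were at least as wide. A single list, wild-type E2 clone 2 replicate 1, divided the region into 2 peaks whose summits were 510 bp apart. The stronger of these had its summit at 54968831, inside the range of the other lists.

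**Figure D3:**
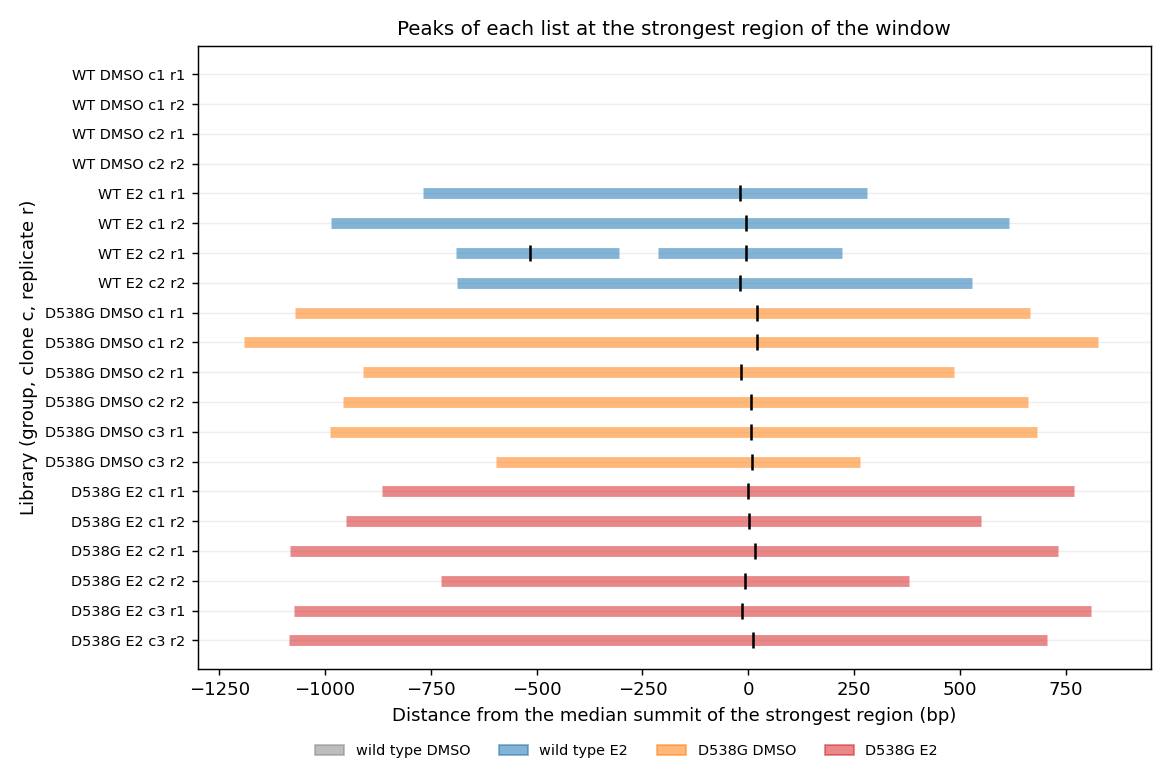
Extent of the peak or peaks of each list in the main region (bars, coloured by group) with the summit as a black tick; the horizontal axis is the distance in bp from the median summit. Summits of the strongest peak line up within 40 bp in the 16 lists with a peak, and wild-type E2 clone 2 replicate 1 has a weaker peak 510 bp lower.

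The other regions are numbered by position, and 7 of them had peaks in at least 2 lists. Region 12, from 54979323 to 54980296 and 11.1 kb above the main summit, had peaks in D538G libraries only: 5 of 6 under DMSO and 4 of 6 under E2, against 0 of 4 and 0 of 4 in wild type. It was absent from all 5 wild-type lists at least as long as the shortest D538G list that held it (4032 peaks), the longest of them with 35344. Under E2, 4 of 6 against 0 of 4 did not pass (Fisher's exact test, p = 0.0762, adjusted p = 1.00 over 35729 regions). The choice of the locus used D538G lists of both treatments, so this comparison is not independent of it. The E2 lists of D538G clone 1 replicate 2 and clone 2 replicate 2 had no peak in region 12. Leaving out either raised the number of window regions with an unadjusted Fisher's exact p under 0.05 in this comparison from 0 to 1. This follows from dropping a list without the peak, so nothing is read from it. Without the E2 list whose peak names carry Ctl, region 12 was in 3 of 5 D538G E2 lists. Over all regions with peaks in at least 2 of the 20 lists, 69 of 52609 (0.131%) had peaks in 9 or more D538G lists and in no wild-type list.

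Region 12 peaks were moderate in rank, from percentile 42.5 through a median of 70.2 to 92.4 under DMSO and from 37.7 through 80.1 to 84.3 under E2, with signal values of 9.63 to 58.6. Each was between 9.01% and 53.7% of the signal value of the main peak of the same list. Its summits fell at a pair of positions. Those of 6 libraries lay between 54979952 and 54979958, and those of the other 3, 294 bp or more lower, between 54979623 and 54979658. The lower position was the summit in D538G DMSO clone 2 replicate 1 and in the E2 lists of clone 1 replicate 1 and clone 3 replicate 1, so each position occurred in all 3 clones and under both treatments.

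Region 7, from 54970331 to 54971539 and 2.32 kb above the main summit, had a peak in 3 of 6 D538G lists with DMSO and 5 of 6 with E2, and in wild type in 0 of 4 with DMSO and 2 of 4 with E2. Both wild-type peaks were in clone 1 and stood low in their lists, at percentiles 10.3 and 2.69, with the summit at 54971217 in each. The D538G summits lay lower, from 54971024 to 54971206. D538G E2 percentiles ran from 26.6 through 65.2 to 89.9, in lists of other lengths, so the values stand side by side and are not a comparison of genotypes. Its strongest peak was in D538G DMSO clone 1 replicate 2, with a signal value of 81.5 at percentile 95.9, while the other D538G DMSO peaks were at 30.2 and 3.28. The wild-type peaks had a −log10 p of 19.6 and 15.6, so neither was left with peaks limited to at least 20. Region 7 then stood in 5 of 6 D538G and 0 of 4 wild-type E2 lists. It was then the 1 window region at an unadjusted Fisher's exact p under 0.05, and 0 passed adjustment. The 5 lists include the E2 list whose peak names carry Ctl. The share of the genome called at this limit was not counted, and −log10 p also moves with depth, so nothing is read from this call.

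Regions 2 and 13, at 54910421 to 54912697 and at 54990527 to 54991880, were the regions of the window that the long wild-type DMSO list held. They lay 56.8 kb below and 22.7 kb above the main summit. Region 2 was found in 1 of 4 DMSO and 2 of 4 E2 lists of wild type, and in 4 of 6 DMSO and 3 of 6 E2 lists of D538G. For region 13 the counts were 1 of 4, 2 of 4, 4 of 6 and 2 of 6 in the same order. In the long wild-type DMSO list the strongest peak of region 2 stood at percentile 50.1 and that of region 13 at 75.5. In the wild-type E2 lists region 2 stood at 83.9 and 84.4 and region 13 at 79.4 and 81.9, while in D538G region 2 ran from 10.5 to 95.5 and region 13 from 5.25 to 89.9. Their summits were less fixed than that of the main region, spread over 933 bp in region 2 and 491 bp in region 13. Both wild-type E2 lists that held them were the long replicate 2 lists, and every wild-type list of at least 9850 peaks held both. Neither region was found in the 3 short wild-type DMSO lists or in a list shorter than 9850 peaks.

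As a share of the main peak of the same list, and so moving with that peak as well, the signal value of region 2 under E2 was 83.6% and 79.8% of that of the main region in wild-type clone 1 and clone 2 replicate 2, and 17.5% to 26.4% in the 3 D538G lists that held it. The means were 81.7 ± 2.64% (SD, n = 2) and 20.7 ± 4.99% (SD, n = 3). For region 13 the shares were 68.6% and 74.8% in wild type and 11.3% and 18.9% in D538G. The shares of region 7 were 18.3 ± 5.74% (SD, n = 2) in wild type and 20.4 ± 13.4% (SD, n = 5) in D538G. In the D538G DMSO lists the shares were 6.75% to 35.2% for region 2 and 6.59% to 26.9% for region 13. Without the E2 list whose peak names carry Ctl, the D538G E2 shares were 17.5% and 18.1% for region 2 and 11.3% for region 13. These shares were chosen after the values were seen and are given with no test. The locus was chosen by the rank of the main region in the D538G DMSO lists, and both wild-type lists behind regions 2 and 13 were of replicate 2.

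**Figure D4:**
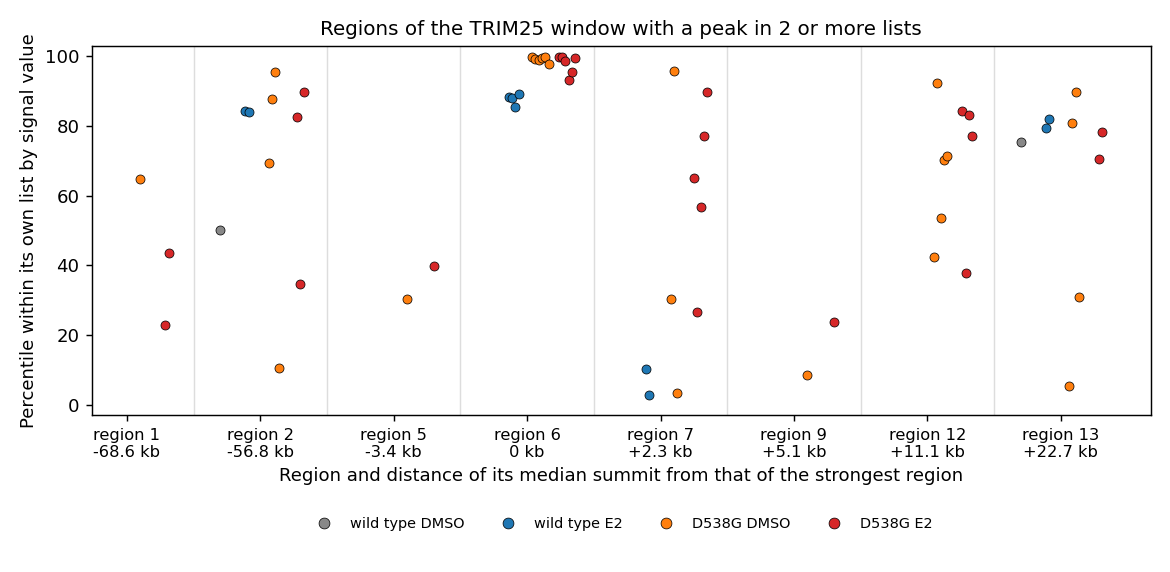
Percentile by signal value within its own list (vertical axis, 100 is the strongest) of the strongest peak of each library in the 8 regions with peaks in at least 2 lists; the horizontal axis gives the region and the distance of its median summit from that of the main region, and each point is a library coloured by group. The main region (region 6) is at 85.6 to 99.8 in all 16 lists, region 12 has D538G points only, and regions 2 and 13 span 5.25 to 95.5.

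The remaining regions were found in D538G lists only. Region 1, at the lower edge of the window, had peaks in 3 D538G lists at percentiles 22.9 to 64.7, and regions 5 and 9 had peaks in 2 D538G lists each, at percentiles 8.41 to 39.8. The 7 regions with a peak in a single list were 213 to 548 bp wide and stood at percentiles 0.623 to 41.9. Of these, 4 were in D538G DMSO clone 1 replicate 2 (50382 peaks), 2 in D538G E2 clone 3 replicate 1 and 1 in D538G E2 clone 3 replicate 2. In all, 11 of the 15 regions had peaks in D538G lists only, 4 in both genotypes and 0 in wild type only, with 59 member peaks in 12 D538G lists and 16 in 8 wild-type lists. Over the genome 56.3% of the 93612 regions had peaks in D538G lists only, 3.78% in wild-type lists only and 40.0% in both. Among regions with peaks in at least 2 lists, D538G alone held 27.3% over the genome and 4 of 8 in the window. D538G had more lists, and 3 of the wild-type lists were short. The part of the number and length of lists in these shares was not tested. The 9 regions within 8 kb of the main summit held 36 of the 75 peaks.

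Fisher's exact test called 0 window regions past an adjusted p of 0.05 in each of the 4 comparisons, as it did over the whole genome (0%). At an unadjusted p under 0.05 it called 1 region for E2 against DMSO in wild type (the main region), 0 for E2 against DMSO in D538G, 2 for D538G against wild type under DMSO (the main region and region 12) and 0 for D538G against wild type under E2. The calls under DMSO and that in wild type rest on the lists that chose the locus, so nothing is read from them. The adjusted counts carry little weight, since a peak in all lists of 1 group and none of the other did not pass adjustment in any comparison that had such regions. The shares called over the genome, in the same order, were 9.34%, 0.0200%, 3.57% and, under E2, 0.325% more often and 0.890% less often bound in D538G. Under E2, 0.0252% of the regions had a peak in all D538G lists and no wild-type list, and 0 of the window regions did. With 15 regions and 75 peaks the window was fuller than most stretches of its length. Of 14822 stretches of 120 kb with any region, the median held 3.00 regions and 12 peaks, and 11.1% held at least 15 regions and 7.09% at least 75 peaks. Outside the window the nearest peaks lay 42.0 kb below (percentile 63.2 of its list) and 18.0 kb above (75.4), and the outermost members lay 0.133 kb (43.6) and 2.34 kb (41.9) inside its edges.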

How the data were processed

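Members, regions and tests were chosen with earlier results of these data known. The deposited lists are in narrowPeak layout, 1 per library and not pooled. Bowtie, MACS2, DESeq2 and hg19 are named, without roles, in the submitters' processing notes; parameters and controls are not given in the sources used here. The names of 4 lists (replicate 1 of D538G clones 1 and 2) include Input, and those of the others do not. The signal value of each peak was deposited by the authors, and its scale is not given in the sources used here. The deposited −log10 p and −log10 q follow, every −log10 p being above 10, and the deposited score restates the −log10 p and was not used. Of 356472 peaks, 5 mitochondrial ones were left out.

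Peaks overlapping by at least 1 bp were merged (Python 3.11.15, numpy 2.4.6; bedtools 2.31.1 gave the same number of regions). Coordinates are 1-based. In each library the peak with the highest signal value stood for a region. Presence was compared by Fisher's exact test (scipy 1.17.1) over regions with peaks in at least 2 libraries compared, and percentiles and summits by exact permutation tests over regions shared by the lists compared, with Benjamini-Hochberg adjustment over all such regions and a threshold of 0.05. Every region of the window was counted, and those with peaks in at least 2 lists were described. The tests were tested on simulated data, and planted changes were found before adjustment. For percentiles and summits, the size, spread and share of these changes were set and not taken from these data. For presence, full separation of the groups did not pass adjustment in any comparison of these data that had it, so a miss after adjustment says little. Depth is unknown, so no interval from counts is given. Without proof of separate cultures, p-values measure the spread between these libraries. E2 and DMSO libraries were paired by clone and replicate number, since both come from the same clone.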

Additional observations from a re-analysis of the deposited data

Results flagged for a closer look

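In 18 combinations of measure and group, 3 libraries stood apart from the rest of their group, where chance gives about 1 in 20. The summit of the main region in D538G DMSO clone 2 replicate 1 was at 54968821, below those of the other 5 lists, which ran from 54968844 to 54968857. The percentile of the main region within its list was 97.7 in D538G DMSO clone 3 replicate 2, below the 99.1 to 99.8 of the others; this was the shortest list of the group, with 1619 peaks, and the part of list length was not tested. The number of peaks in the window was 5 in wild-type DMSO clone 1 replicate 2 and 0 in the other 3 lists of that group.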

How the results depend on the processing

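Of 107 alternatives to the tests on the main region and to the 4 counts of window regions past the adjusted threshold, 105 kept the direction and the side of 0.05 (unadjusted for the tests on the main region). Most of the 107 were alternatives to the 4 counts. These carry little weight, since even full separation of the groups did not pass adjustment in the main setting. With clone means as units the rank difference of 41.4 had an exact permutation p of 0.20; 5 units cannot give a p below 0.05. Leaving out 1 library at a time gave rank differences of 34.8 to 47.8 and summit differences of 10.7 to 16.9 bp between genotypes under E2, and leaving out 1 pair gave −14.4 to −3.60 bp for E2 against DMSO in D538G. The summit difference of 16.9 bp, without D538G E2 clone 3 replicate 1, was the 1 value among these to cross the unadjusted threshold (exact permutation p = 0.0317); the cause was not tested. Ranked by −log10 p the rank difference was 46.9 (exact permutation p = 0.00476).

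The 4 counts were 0 under every alternative run. With genotype permuted within the replicate number (replicate block), the exact permutation p was 0.0300 for the rank difference of 41.4 and 0.100 for the summit difference of 13.7 bp, and without the pairing it was 0.387 for −6.67 bp in D538G. Genotypes share only a replicate number: E2 libraries of the 2 genotypes with the same number correlated at −0.0305 on average in their deviations over the 1112 regions, and others at 0.0303. When lists were limited to their 1000 strongest peaks, the window held 1 region, the main one, in 0 of 4, 2 of 4, 6 of 6 and 6 of 6 lists of wild type with DMSO and E2 and D538G with DMSO and E2. With a −log10 p of at least 20 the main region kept its counts and the window held 10 regions. The counts at an unadjusted p under 0.05 moved in 8 alternatives: from 2 to 1 for genotype under DMSO (summits joined, 1000 strongest peaks, replicate block), from 1 to 0 for E2 in wild type (the latter 2) and from 0 to 1 for genotype under E2 (−log10 p of at least 20, and without D538G E2 clone 1 replicate 2 or clone 2 replicate 2). Leaving out both replicate 1 libraries of D538G clone 2 was chosen after the peak names were seen and changed no count of calls.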
